A study of Mus musculus with 7 samples.

Results

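Transcripts of 9 genes of the renin-angiotensin system were examined in kidneys that lack the lamin B receptor (LBR), which sits in the inner nuclear membrane and holds silent chromatin at the edge of the nucleus. The members were chosen by symbol among the 24328 genes listed for each library, and all 9 were found there. They are the renin gene Ren1, its substrate Agt, the converting enzyme gene Ace, the peptidase genes Enpep and Mme, and the receptor genes Agtr1a, Agtr1b, Atp6ap2 and Mas1. Right kidneys came from C57BL/6J mice aged 4 weeks. The LBR-null mice 4001, 4002 and 4007 were homozygous for Lbric-J, a germline loss-of-function allele of Lbr, and the only WT mouse, 4009, was a Lbr+/+ littermate. No mouse received a treatment that the labels name. Mice 4001, 4007 and 4009 gave 2 poly(A) RNA-seq libraries each and mouse 4002 gave 1. Each mouse counted as 1 replicate, with the mean of its libraries as its value (n = 3 LBR-null mice, n = 1 WT mouse). The spread between WT mice is therefore not known.

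In this system, renin cleaves angiotensinogen to angiotensin I, and angiotensin-converting enzyme turns that decapeptide into angiotensin II, which constricts vessels and promotes sodium retention through the type 1 receptor. Aminopeptidase A and neprilysin, the products of Enpep and Mme, cut these peptides further, and some of the products act on the Mas receptor. The kidney is the main source of circulating renin, which is stored in granular cells of the afferent arteriole, and proximal tubule cells make angiotensinogen and carry membrane peptidases on their brush border.

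Values are normalized counts, that is, reads divided by the size factor of the library. The 7 libraries held 20694016 to 26333284 reads on genes, and 1 read was worth 0.787 to 1.15 normalized counts. The labels give no sex. Xist, which marks an inactive X chromosome, was at 5785 and 9940 normalized counts in mice 4001 and 4007 and at 65.3 and 35.5 in mice 4002 and 4009, and the Y-linked gene Ddx3y was at 141 and 44.3 in the former and 1516 and 1284 in the latter. Mouse 4002 was thus nearest to WT in both, and in the other LBR-null mice genotype cannot be told apart from what these genes mark. Mouse 4001 stood apart from the other LBR-null mice. Its 5 podocyte markers summed to 8306 normalized counts against 15286 and 16692 in mice 4002 and 4007 and 19926 in WT, and its 8 liver markers summed to 29472 against 12939, 14173 and 7071. Kidney markers were present in all libraries. The 8 proximal tubule markers summed to 176658, 133068 and 133614 in mice 4001, 4002 and 4007 against 178986 in WT, of which Slc27a2 gave the most in each LBR-null mouse, with 5 below both WT libraries in all 5 LBR-null libraries (Slc34a1, Lrp2, Cubn, Slc5a2 and Slc22a6) and 3 above them (Slc5a12, Slc27a2 and Aqp1). The 8 smooth muscle and mesangium markers summed to between 8415 and 9467 in LBR-null mice against 15917 in WT.

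The study classes genes by CpG islands, and the members differed in them. CpG islands (CGIs) are stretches rich in CG pairs at the promoters of broadly expressed genes. In the mm9 genome, Ace, Agtr1a, Enpep, Mme and Atp6ap2 had a window of 201 bases with at least 50% GC and more than 0.6 of the CG pairs expected from base composition within 500 bp of a coding start. Ren1, Agt, Agtr1b and Mas1 had none there. The study counts a gene as CGI- only if an island is absent from the gene body too, and of these only Ren1 had no such window in its body, so no class is assigned here. Repeats were not masked, and neither the part of the definition that rests on CxxC affinity purification nor the list of classes in the study was used. RefSeq promoters (build GRCm38.p6, from 250 bases before to 50 after a start) were matched for 8 of the members, and Agtr1a had no match. Below are the 250 bases before the start of 5 members, printed 5′ to 3′ on the strand of the gene, to set promoters poor in CG pairs beside one of middling content and others rich in them. Capitals mark each CG pair and each TATAAA, the core of a TATA box.
Agt, chr8:124569707-124569956, minus strand: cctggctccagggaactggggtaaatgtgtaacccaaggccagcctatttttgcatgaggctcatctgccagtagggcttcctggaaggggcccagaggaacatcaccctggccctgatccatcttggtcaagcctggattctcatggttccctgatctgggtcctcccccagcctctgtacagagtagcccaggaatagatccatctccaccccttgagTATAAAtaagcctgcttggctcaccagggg
Agtr1b, chr3:20367178-20367427, minus strand: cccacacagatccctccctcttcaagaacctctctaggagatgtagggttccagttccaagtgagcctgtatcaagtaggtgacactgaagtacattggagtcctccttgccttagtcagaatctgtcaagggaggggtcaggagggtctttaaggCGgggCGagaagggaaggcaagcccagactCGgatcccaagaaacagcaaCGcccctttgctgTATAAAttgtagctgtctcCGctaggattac
Enpep, chr3:129332750-129332999, minus strand: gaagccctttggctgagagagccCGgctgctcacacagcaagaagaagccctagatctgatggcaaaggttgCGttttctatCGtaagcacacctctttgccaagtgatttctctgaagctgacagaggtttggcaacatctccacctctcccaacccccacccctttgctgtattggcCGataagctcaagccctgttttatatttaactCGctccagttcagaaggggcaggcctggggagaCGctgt
Ace, chr11:105967698-105967947, plus strand: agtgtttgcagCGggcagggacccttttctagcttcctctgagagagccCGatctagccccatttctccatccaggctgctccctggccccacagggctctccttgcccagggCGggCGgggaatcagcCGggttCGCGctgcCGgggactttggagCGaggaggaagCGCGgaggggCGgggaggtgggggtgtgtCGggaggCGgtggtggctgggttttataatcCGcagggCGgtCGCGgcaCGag
Atp6ap2, chrX:12587509-12587758, plus strand: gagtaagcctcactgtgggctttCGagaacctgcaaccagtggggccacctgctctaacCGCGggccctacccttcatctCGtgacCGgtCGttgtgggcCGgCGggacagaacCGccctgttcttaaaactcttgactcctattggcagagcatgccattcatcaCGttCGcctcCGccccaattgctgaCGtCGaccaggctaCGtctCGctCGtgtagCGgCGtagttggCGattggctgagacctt

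Over the full 300 bases, the ratio of observed to expected CG pairs was 0.0446 for Agt, 0.0551 for Ren1, 0.126 for Mas1, 0.232 for Agtr1b and 0.36 for Enpep. It was 0.82 for the first Ace promoter and 0.88 for Atp6ap2, against a median of 0.384 over 32851 promoters. Ace had another promoter at 0.0766, and Mme had 3, at 0.311, 0.801 and 0.772. The single RefSeq window of Enpep held no island window, unlike the wider search around its mm9 starts. TATAAA stood on the strand of the gene at 29 bases before the start in Ren1, 30 in Agt and 31 in Agtr1b, and 8.32% of all promoters held it on that strand. It was found on the other strand in the first Ace promoter and in Enpep, as in 6.95% of all promoters. These matches describe letters, not binding.

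Renin itself could not be followed. Ren1, on chromosome 1 of mm9 from 135247087 to 135256902 on the plus strand, was listed at 0 in all 7 libraries, and so was the related renin gene Ren2, which is no member. No value for renin transcripts is therefore given here. The same held for 2860 of the 24328 genes, so a listed 0 was not read as silence of the gene. How reads that match related genes were counted is not given in the sources used here.

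Of the other members, 6 were well expressed and 2 were scarce. Per kb of exon, WT levels in normalized counts were 1625 for Agt, 984 for Atp6ap2, 833 for Mme, 792 for Enpep, 625 for Ace and 572 for Agtr1a, followed by 5.56 for Mas1 and 2.36 for Agtr1b. The LBR-null means per kb were 1649 ± 424 for Agt, 973 ± 253 for Atp6ap2, 769 ± 320 for Mme, 535 ± 218 for Ace, 462 ± 58.3 for Enpep and 404 ± 73.4 for Agtr1a (SD, n = 3 mice). Enpep thus stood above Ace in WT and below it in the LBR-null mean. Within each of the 4 mice, Agt was above Atp6ap2, Atp6ap2 above Mme, and Mme above Ace and Enpep, although the ranges of neighbours overlapped between mice. The order was Ace, Enpep and Agtr1a in mice 4001 and 4002, Agtr1a, Enpep and Ace in mouse 4007, and Enpep, Ace and Agtr1a in WT. Mas1 (2.11 to 5.27 per kb) lay below all of them and above Agtr1b (0.267 to 1.20 per kb) in the LBR-null mice.

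**Figure D1:**
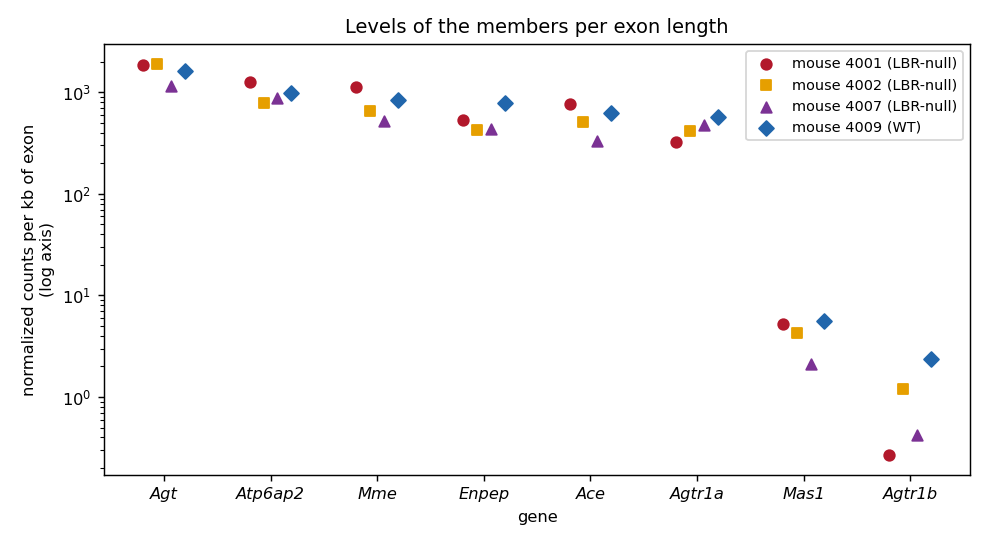
Level of each member in normalized counts per kb of exon (log axis), with 1 point for each of the 4 mice. Ren1, listed at 0, is left out. Agt is highest in WT at 1625, while Mas1 and Agtr1b, at 5.56 and 2.36, lie far below the other 6 members.

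No member passed the test of the LBR-null against the WT kidney. The values of the mice, as log2(normalized counts + 1), entered a limma fit of the 17283 genes that averaged 5 or more, 7 members among them. Of these it called 0 at an adjusted p of 0.05, as it did of all genes (percent called 0), and edgeR and DESeq2 on recovered reads called 0 members too. Their backgrounds were 0.162% of all tested genes for edgeR and 6.72% for DESeq2. At an unadjusted p under 0.05, limma found 1 member lower (Enpep) and 0 higher, where 8.05% of all tested genes were lower and 10.7% higher. The median log2 fold change was −0.31 over the 7 members and 0.01 over all tested genes. In this design of 3 against 1 mouse, an exact permutation test of a single gene cannot reach a p of 0.05, so none is given.

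The groups did not overlap for 3 members. Enpep, Agtr1a and Agtr1b lay below both WT libraries in all 5 LBR-null libraries, and 0 members lay above, against 21.4% and 22.2% of the 21468 genes above 0. In mice 4002 and 4007 alone, 6 members lay below both WT libraries in every library, Ace, Mme and Atp6ap2 being added. In those mice 0 members lay above, where 29.3% of genes lay below and 33% above. Leaving out mouse 4001 gave the highest count of members without overlap. It was 3 without mouse 4002 and 4 without mouse 4007, for which no share of all genes was taken. Enpep, Agtr1a and Mas1 were lower in each of the 3 LBR-null mice than in WT and no tested member was higher in each, against 32.3% and 33.7% of all tested genes. By the 2-fold criterion of the study, 1 member (Agtr1b) was lower and 0 were higher, and these shares were 8.8% and 22.7% over all genes above 0. Bulk RNA does not tell fewer cells of a type from less RNA per cell.

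**Figure D2:**
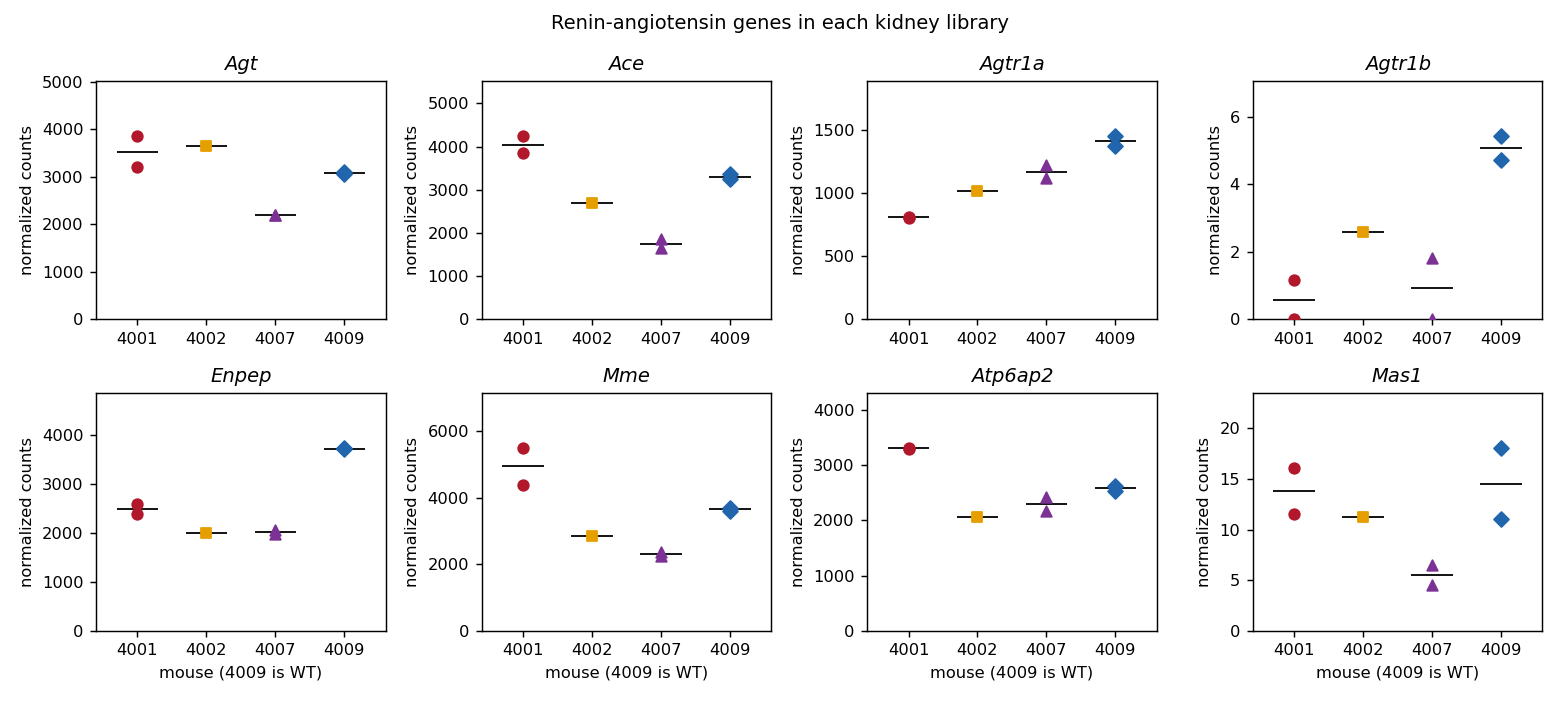
Normalized counts (each axis from 0) of the 8 members with reads. A point is a library, the short line is the mean of a mouse, and 4009 is WT. All LBR-null points of Enpep, Agtr1a and Agtr1b lie below both WT points, whereas Ace, Mme and Atp6ap2 are higher than WT in mouse 4001 and lower in the other LBR-null mice.

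Agt encodes angiotensinogen, the only known substrate of renin. The gene lies at mm9 chromosome 8 from 127080434 to 127093606 on the minus strand. Its normalized counts were 3855 and 3196 in mouse 4001, 3635 in mouse 4002, 2187 and 2200 in mouse 4007, and 3049 and 3098 in the WT libraries. Mice 4001 and 4002 lay above WT and mouse 4007 below it. The LBR-null mean of 3118 ± 803 (SD, n = 3) stood against 3074 in WT. The log2 fold change, the mean of the logs of the mice and not the log of their mean, was −0.02 (standard error, SE, 0.35, 95% interval −0.87 to 0.84, limma adjusted p = 0.987). Log2 fold changes by mouse were 0.20, 0.24 and −0.49 in mice 4001, 4002 and 4007, so the estimate near 0 averages values on either side of WT.

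Liver makes most circulating angiotensinogen. Of the 8 liver markers, of which limma called 0, 5 were above both WT libraries in all LBR-null libraries (Apoa1, Apoa2, Serpina1a, Fga and Fgb, against 25.5% of all tested genes) and 3 overlapped (Alb, Apoc3 and Ttr). The sum of the 8 was 29472, 12939 and 14173 normalized counts in mice 4001, 4002 and 4007 against 7071 in WT. The part of liver transcripts in the Agt values was not tested.

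The genes nearest to Agt over the 3 LBR-null mice were Tspan12, Irx1, Dr1, Usmg5 and Ndufb8. The measure was the root mean square difference of log2 fold changes over the 3 mice, which ran from 0.0802 to 0.093, among 13057 genes averaging 50 or more. With 3 mice that share 1 WT, this ranking is a description.

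Ace, on chromosome 11 of mm9 from 105829259 to 105851278 on the plus strand, encodes the enzyme that makes angiotensin II and degrades bradykinin. The libraries of mouse 4001 held 4244 and 3843 normalized counts of Ace, mouse 4002 held 2699, those of mouse 4007 held 1642 and 1848, and WT held 3359 and 3244. Mouse 4001 was above WT and the other LBR-null mice were below it. The mean was 2829 ± 1155 (SD, n = 3) against 3302, a log2 fold change of −0.31 (SE 0.46, 95% interval −1.41 to 0.80, limma adjusted p = 0.763). Without mouse 4001 the estimate was −0.61 and without mouse 4007 it was 0.00. The gene model overlaps Gm11651, and reads of the overlap cannot be told apart. The genes nearest to Ace were Cpq, Ihh, Syt17, Ppic and Ugt3a1, with root mean square differences from 0.121 to 0.167.

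Enpep showed the lowest unadjusted p of the members. It encodes aminopeptidase A, which removes the N-terminal aspartate of angiotensin II, and occupies 128972093 to 129035638 on the minus strand of mm9 chromosome 3. Its normalized counts were 2395 and 2586 in mouse 4001, 2002 in mouse 4002, 2070 and 1988 in mouse 4007, and 3709 and 3747 in WT. The 5 LBR-null libraries lay close together and well below both WT libraries.

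The Enpep mean of 2174 ± 274 (SD, n = 3) was 0.583 of the WT value, 3728. The log2 fold change was −0.79 (SE 0.26, 95% interval −1.40 to −0.17), with an unadjusted p of 0.0202 and an adjusted p of 0.176 from limma. Adjusted p was 0.176 with edgeR and 0.104 with DESeq2. Enpep passed the threshold in a pair of alternatives. The first takes the same correlation between libraries of a mouse for all genes (0.741), and the second rests on fewer LBR-null mice. Neither adds a WT mouse. With all 7 libraries and the mouse as a random effect, the log2 fold change was −0.78 (limma adjusted p = 0.0408, which called 5.8% of all genes in that fit, 3.39% of all being lower). Without mouse 4001 it was −0.89 (limma adjusted p = 0.0448, 7.51% of all genes called and 4.22% lower). By mouse, the log2 fold change was −0.58 in 4001, −0.90 in 4002 and −0.88 in 4007. Of these, 4002 is the mouse near WT in Xist, and the part of sex was not tested for any member. Of the 8 proximal tubule markers, 5 lay below and 3 above both WT libraries in the same libraries. Their median log2 fold change was −0.70, −1.20 and −1.48 in mice 4001, 4002 and 4007, and their part in the Enpep difference was not tested.

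Mme encodes neprilysin, which converts angiotensin I to angiotensin 1-7 and degrades natriuretic peptides, and lies on chromosome 3 from 63099794 to 63186153 on the plus strand of mm9. Its normalized counts were 4397 and 5510 in mouse 4001, 2851 in mouse 4002, 2356 and 2237 in mouse 4007, and 3705 and 3593 in WT. As for Ace, mouse 4001 was above WT and the others were below. The mean of 3367 ± 1401 (SD, n = 3) against 3649 corresponded to a log2 fold change of −0.19 (SE 0.44, 95% interval −1.25 to 0.87, limma adjusted p = 0.852), and to −0.51 without mouse 4001.

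All well expressed members but Enpep differed among LBR-null mice more than the median gene, Ace and Mme the most. The highest LBR-null mouse exceeded the lowest by 2.32-fold for Ace and 2.16-fold for Mme, larger ratios than those of 92.1% and 90.2% of the 13058 genes averaging 50 or more. For Agt, Atp6ap2 and Agtr1a it was 1.66, 1.61 and 1.45, larger than for 74.6%, 71.6% and 58% of genes. For Enpep the ratio was 1.24, larger than that of 29.5% of genes, and the median gene had 1.38. Between the libraries of mouse 4001 the ratio was 1.10 for Ace, while the Mme libraries, at 4397 and 5510, differed by more than the median gene of that mouse (1.13). Between those of mouse 4007 it was 1.13 for Ace and 1.05 for Mme, and 1.06 for the median gene.

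**Figure D3:**
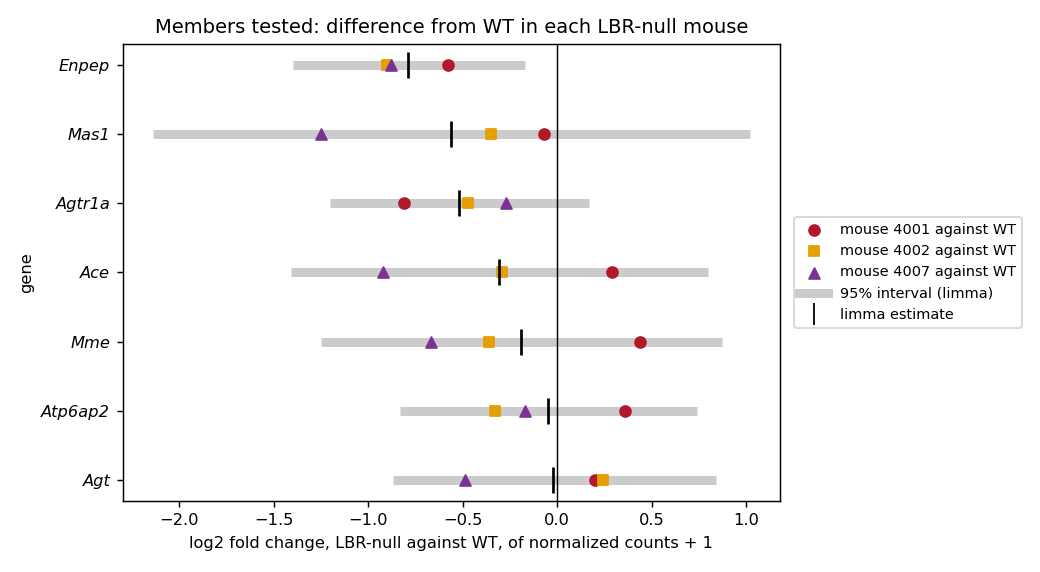
Log2 fold change of the 7 tested members against WT (horizontal axis, normalized counts + 1). Symbols are the 3 LBR-null mice, black ticks the limma estimates and grey bars their 95% intervals (2 residual degrees of freedom before moderation). Only the bar of Enpep, from −1.40 to −0.17, does not reach 0, and its adjusted p was 0.176.

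Agtr1a encodes the main type 1 receptor of angiotensin II in the mouse kidney and occupies 30428310 to 30474736 on the plus strand of mm9 chromosome 13. Its normalized counts were 808 and 804 in mouse 4001, 1017 in mouse 4002, 1217 and 1116 in mouse 4007, and 1450 and 1371 in WT. Every LBR-null library was below both WT libraries, with mouse 4001 farthest from them. The mean of 997 ± 181 (SD, n = 3) was 0.707 of the WT value, 1410, with a log2 fold change of −0.52 (SE 0.28, 95% interval −1.20 to 0.17, limma adjusted p = 0.385). Without mouse 4001 the estimate was −0.37. Of the podocyte and the smooth muscle or mesangium markers, of which limma called 0, 4 of 5 and 5 of 8 lay below both WT libraries in all LBR-null libraries, against 25.7% of all tested genes. The rest (Wt1, Cnn1, Des and Gata3) overlapped WT, and the part of these markers in the Agtr1a values was not tested.

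Agtr1b, the second type 1 receptor gene of rodents, which is known from adrenal and pituitary tissue, lies on chromosome 3 from 20213395 to 20266099 on the minus strand of mm9. It had 1 and 0 reads in the libraries of mouse 4001, 3 in mouse 4002, 0 and 2 in mouse 4007, and 6 in each WT library. All LBR-null libraries were below WT, but on very few reads. The sums were 6 reads in 5 LBR-null libraries (exact Poisson 95% interval 2.2 to 13.1) and 12 reads in the 2 WT libraries (6.2 to 21), intervals that cover counting error only. In normalized counts the mean was 1.35 ± 1.07 (SD, n = 3) against 5.08, 3.75-fold lower, and below the mean of 5 needed for the test. With no filter on low values limma gave a log2 fold change of −1.46 and an adjusted p of 0.353.

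The coding sequences of Agtr1a and Agtr1b are both 1080 bases long in mm9 and 90.8% identical, and 3.2% of the 50-base stretches of Agtr1b also occur in Agtr1a. Such stretches are shorter than the reads of these libraries, so their share does not tell how many reads match both genes. Whether Agtr1b reads were shared with its far more abundant paralog was not tested. The 6 adrenal cortex markers, of tissue that can adhere to a kidney, summed to 185, 239 and 251 normalized counts in mice 4001, 4002 and 4007 against 134 in WT, and Cyp11b1 was at 0 in 6 libraries. Most of each sum was Star. The 4 tested adrenal markers, of which limma called 0, lay above both WT libraries in all LBR-null libraries. These were Star, Mc2r, Cyp21a1 and Hsd3b1, and 25.5% of all tested genes lay above in the same way, whereas Agtr1b lay below. The part of adrenal transcripts in the Agtr1b values was not tested.

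Atp6ap2, an X-linked gene on chromosome X of mm9 from 12164927 to 12194175 on the plus strand, encodes the (pro)renin receptor, which is also an accessory subunit of the vacuolar proton pump. Its normalized counts were 3290 and 3314 in mouse 4001, 2051 in mouse 4002, 2419 and 2165 in mouse 4007, and 2530 and 2624 in WT. Mouse 4001 lay above WT and the others below it. The mean of 2548 ± 663 (SD, n = 3) against 2577 gave a log2 fold change of −0.05 (SE 0.33, 95% interval −0.83 to 0.74, limma adjusted p = 0.958). Log2 fold changes by mouse were 0.36, −0.33 and −0.17 in mice 4001, 4002 and 4007.

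Mas1, whose product is the receptor of angiotensin 1-7, lies on chromosome 17 of mm9 from 13033945 to 13061009 on the minus strand. Its normalized counts were 16.1 and 11.5 in mouse 4001, 11.2 in mouse 4002, 6.52 and 4.56 in mouse 4007, and 11.0 and 18.1 in WT. Mouse 4007 was lowest, while mice 4001 and 4002 overlapped the WT libraries. The mean was 10.2 ± 4.22 (SD, n = 3) against 14.6, a log2 fold change of −0.56 (SE 0.66, 95% interval −2.14 to 1.02, limma adjusted p = 0.695), on 52 reads in LBR-null and 34 in WT libraries. The estimate was −0.19 against the first WT library alone, −0.85 against the second, and −0.21 without mouse 4007. The gene overlaps the antisense imprinted transcript Airn and AL589878.1, and since the strand setting of the counting is not given in the sources used here, their reads cannot be told apart from those of Mas1.

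The rest of the pathway was followed in 52 genes in 5 groups by role, of which 48 were tested and 0 called by limma. At an unadjusted p under 0.05, 6 were lower and 3 higher, where 8.05% and 10.7% of all tested genes were. In all 5 LBR-null libraries, 19 of the 48 lay below both WT libraries and 6 above, against 25.7% and 25.5% of all tested genes. Without mouse 4001, 23 lay below and 9 above, against 35.1% and 35.8%. The median log2 fold change was −0.15, and −0.11 without mouse 4001. edgeR called 0 of them and DESeq2 called 1, Scnn1a, against 0.162% and 6.72% of all tested genes.

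Peptidases that make or cut angiotensins had a median log2 fold change of −0.38 (−0.46 without mouse 4001), with 2 of 12 tested genes lower and 0 higher at an unadjusted p under 0.05, against 8.05% and 10.7% of all tested genes. Of the 12, 6 lay below both WT libraries in all LBR-null libraries (25.7% of all tested genes), and 10 did so without mouse 4001 (35.1%). Proximal tubule markers, which share the brush border with several of these enzymes, had a median of −1.28 with 5 of 8 below both WT libraries and 3 above, and their part in this group was not tested. Anpep, encoding aminopeptidase N, which turns angiotensin III into angiotensin IV, was the lowest. It was at 1684 and 1697 normalized counts in mouse 4001, 2191 in mouse 4002, 788 and 824 in mouse 4007, and 3578 and 3563 in WT, a log2 fold change of −1.31 (SE 0.53, limma adjusted p = 0.261). The highest was the mast cell carboxypeptidase gene Cpa3, at 13.1 ± 8.23 (SD, n = 3) against 3.95 in WT, a log2 fold change of 1.31 with an adjusted p of 0.437 from limma. Mouse 4001 held most of these Cpa3 counts, 29.9 and 13.3 in its libraries, and the groups overlapped.

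A further peptidase gene, Rnpep, is named after its values were seen. Encoding aminopeptidase B, it was at 493 and 488 normalized counts in mouse 4001, 947 in mouse 4002, 632 and 662 in mouse 4007, and 1641 and 1513 in WT. All LBR-null libraries were below WT (log2 fold change −1.23, SE 0.38, limma adjusted p = 0.164).

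Receptors and receptor partners had a median log2 fold change of −0.24 (−0.09 without mouse 4001), and 4 of 7 tested genes lay below both WT libraries in all LBR-null libraries, as did 25.7% of all tested genes. Arap1, which encodes a partner in type 1 receptor trafficking, was lowest, at 1061 and 916 normalized counts in mouse 4001, 1052 in mouse 4002, 959 and 1024 in mouse 4007, and 1601 and 1708 in WT. The LBR-null mean of 1011 ± 36.1 (SD, n = 3) varied little and gave a log2 fold change of −0.71 (SE 0.23, limma adjusted p = 0.170). Agtr2, the type 2 receptor gene, was highest, at 10.1 ± 3.64 (SD, n = 3) against 9.25, and the groups overlapped.

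Genes of renin cells and regulators of renin had a median log2 fold change of −0.22 (−0.12 without mouse 4001). Of the 17, 8 lay below both WT libraries in all LBR-null libraries and 0 above (25.7% and 25.5% of all tested genes). The other 9 overlapped. Without mouse 4001, 8 lay below and 3 above, against 35.1% and 35.8%. Adrb1, the beta-1 adrenergic receptor through which sympathetic nerves release renin, was lowest. It was at 41.3 and 33.7 normalized counts in mouse 4001, 31.8 in mouse 4002, 20.5 and 39.2 in mouse 4007, and 100 and 68.8 in WT, a log2 fold change of −1.33 (SE 0.42, limma adjusted p = 0.166). Casr, the calcium-sensing receptor gene, was highest at 0.68 on the log2 scale, with 1014 normalized counts in mouse 4001 against 318, 395 and 314 in mice 4002, 4007 and 4009. Akr1b7, a marker of renin cells named after its values were seen, was at 193 and 119 in mouse 4001, 270 in mouse 4002, 370 and 356 in mouse 4007, and 398 and 375 in WT. Its log2 fold change was −0.64 (SE 0.48, limma adjusted p = 0.523), and −1.30, −0.52 and −0.09 in mice 4001, 4002 and 4007. The order of Akr1b7 across the mice was that of Agtr1a, lowest in mouse 4001 and highest in WT. Casr and Adrb1 of its group did not share that order, while the podocyte markers Podxl and Synpo did.

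The kallikrein-kinin genes, whose peptides are degraded by the Ace product, had a median log2 fold change of 0.95, and of 0.54 without mouse 4001. Across all LBR-null libraries, 4 of 6 lay above both WT libraries and 1 below, against 25.5% and 25.7% of all tested genes. Klk1, tissue kallikrein, was the lowest, at 46221 ± 3921 normalized counts (SD, n = 3) against 81559, a log2 fold change of −0.82 with an adjusted p of 0.418 from limma. Reads of Klk1 can be split with its close relatives in the kallikrein family. Bdkrb2, the bradykinin B2 receptor gene, was the highest at 1.15 (limma adjusted p = 0.512), at 42.7, 10.3 and 12.4 normalized counts in mice 4001, 4002 and 4007 against 7.44.

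The kininogen genes Kng1 and Kng2 were the pair of this group higher at an unadjusted limma p under 0.05, and 0 were lower. Of all tested genes, 10.7% were higher and 8.05% lower. Kng2 was at 20568 ± 6471 normalized counts (SD, n = 3) against 9238 and Kng1 at 357 ± 147 against 153, with adjusted p of 0.236 and 0.245 from limma. As similar paralogs, they may share reads. Liver also makes kininogens and prekallikrein (Klkb1). The 8 liver markers summed to 29472, 12939 and 14173 normalized counts in mice 4001, 4002 and 4007 against 7071, beside 28039, 16730 and 16936 against 9238 for Kng2, and their part in this group was not tested.

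In the mineralocorticoid arm, through which aldosterone acts on sodium channels, the median log2 fold change was 0.11, and 0.02 without mouse 4001. Scnn1a, the alpha subunit of the epithelial sodium channel, was highest, at 6772 and 8268 normalized counts in mouse 4001, 4707 in mouse 4002, 4576 and 4847 in mouse 4007, and 2337 and 2261 in WT. All LBR-null libraries lay above both WT libraries. The log2 fold change was 1.26 (standard error, SE, 0.35, 95% interval 0.41 to 2.11), with an adjusted p of 0.139 from limma, 0.172 from edgeR and 0.0250 from DESeq2. The lowest was Hsd11b2, the enzyme that shields the mineralocorticoid receptor from corticosterone, at 2708, 6552 and 4863 normalized counts in mice 4001, 4002 and 4007 against 6211, a log2 fold change of −0.49 with overlapping groups. Cyp11b2, the aldosterone synthase gene of the adrenal, had 1 read in 1 library.

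**Figure D4:**
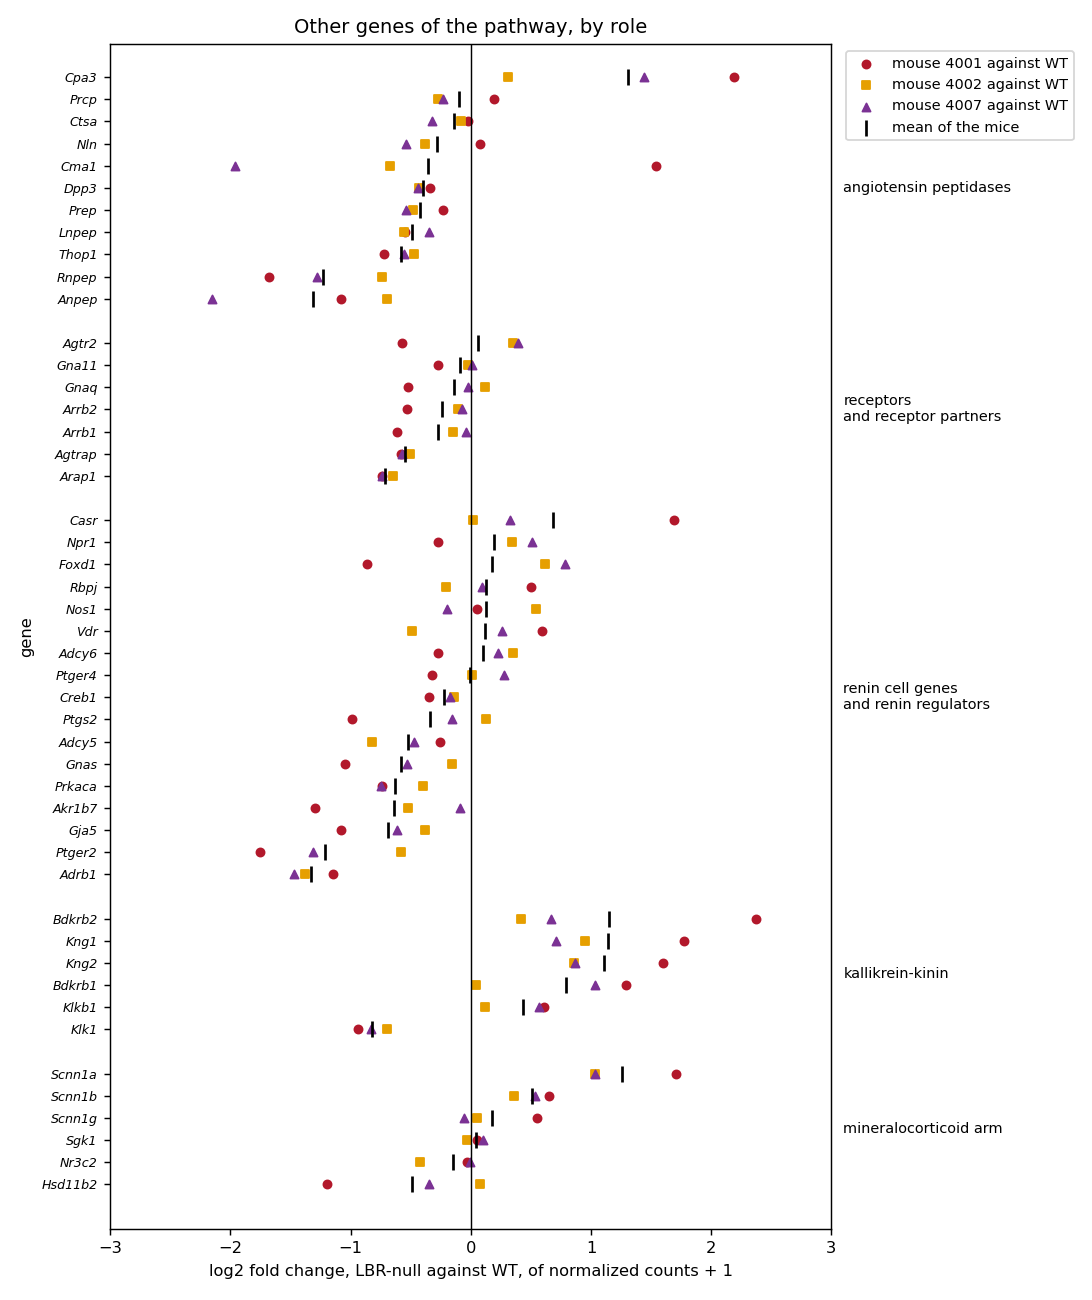
Log2 fold change against WT (horizontal axis, normalized counts + 1) of tested genes of the pathway that are not members, grouped by role and with 1 gene left out. Symbols are the 3 LBR-null mice and black ticks their mean. Kallikrein-kinin genes other than Klk1 lie to the right of 0 (median of the group 0.95), and peptidases mostly to the left (median −0.38), while mouse 4001 is far from the other mice for Casr.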

How the data were processed

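Kidney poly(A) RNA-seq data of 3 LBR-null mice (5 libraries) and 1 WT mouse (2 libraries) were analysed. The authors aligned the reads to mm9 with STAR 2.6.0, kept libraries above a minimum of aligned reads, and deposited a signal per gene symbol, namely counts divided by the size factor from DESeq2 1.25.1. The counting program and annotation are not given in the sources used here. All deposited values were whole multiples of 1 read within 0.01 read, so reads were recovered by division. The libraries held 20694016 to 26333284 reads on genes.

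Libraries were averaged within a mouse. limma 3.58.1 (R 4.3.3, eBayes with a trend) was fitted to log2(normalized counts + 1) of the 17283 genes averaging 5 or more, and p-values were adjusted over all of them by Benjamini-Hochberg. The fit leaves 2 residual degrees of freedom and takes the spread of the single WT mouse from the LBR-null mice. On this scale fold changes of genes with few reads are understated. Alternatives were edgeR 4.0.16 and DESeq2 1.42.0 on recovered reads summed per mouse, the mouse as a random effect, other pseudocounts, filters and scalings, single WT libraries, and leaving out each LBR-null mouse. Gene models, exon lengths and island windows came from GENCODE vM1 and the mm9 sequence, and promoters from RefSeq.

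Named genes are the 9 members, the highest and the lowest log2 fold change in each of 5 groups of other pathway genes, and the 5 genes nearest to Ren1, Agt and Ace over the LBR-null mice. Ren1, listed at 0, gave none. Exceptions are marked in the text, as are the genes of marker lists. Marker lists covered proximal tubule, podocyte, smooth muscle and mesangium, endothelium, adrenal cortex, liver, neutrophil, macrophage and sex. Of the other pathway genes, 1 enters the counts and medians of its group and is not reported here by itself. The members and lists were chosen with earlier results of these data known.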

Additional observations from a re-analysis of the deposited data

Results flagged for a closer look

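Among the 5 LBR-null libraries, the highest and the lowest value were compared with Dixon's critical value for the 8 members with reads and for the other pathway genes named in the text, 27 genes in all. Of these, 2 had a library far from the rest, a share that chance alone would put near 1 in 20, and repeat libraries share a kidney. Bdkrb2 was at 61.2 normalized counts in the second library of mouse 4001, against 24.1 in the first library of that mouse and 10.3 to 13.7 in mice 4002 and 4007. The gap to the next library was 0.729 of the whole range. A single read of Cyp11b2, worth 0.931 normalized counts, lay in a library of mouse 4007, and the remaining LBR-null libraries had none. 0 members had such a library.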

How the results depend on the processing

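No paired analysis was possible because the library numbers in the labels name repeat libraries of a mouse and pair nothing across genotypes. Over the alternatives, the number of members called by limma, 0, became 1 (Enpep) with the mouse as a random effect, and ranged from 0 to 1 when each LBR-null mouse was left out, the 1 being without mouse 4001. Among the other pathway genes, 0 calls became 2 with the random effect (Rnpep and Scnn1a) and 1 with DESeq2 (Scnn1a). They numbered between 0 and 1 when a mouse was left out (Scnn1a, without mouse 4001). The shares of all tested genes called were 5.8% with the random effect, 6.72% with DESeq2 and 7.51% without mouse 4001. The count of members at least 2-fold lower, 1, was 0 with a pseudocount of 5 and with a mean of at least 20, since Agtr1b then moves or drops out. Members whose groups did not overlap numbered 3, then 2 with a mean of at least 20, and from 3 to 6 when a mouse was left out. The estimates of Agt (−0.14 to 0.22), Mme (−0.51 to 0.04) and Atp6ap2 (−0.25 to 0.09) changed sign when mouse 4007 was left out, to 0.22, 0.04 and 0.01, that of Ace (−0.61 to 0.00) became 0.00, and that of Atp6ap2 also without mouse 4002, to 0.09. Their cause was not tested. Enpep stayed between −0.89 and −0.73 and Agtr1a between −0.64 and −0.37 over all alternatives run, whereas Mas1 moved between −0.85 (second WT library alone) and −0.19 (first WT library alone). TMM scaling moved the median of all genes by −0.03. Precision is limited by the single WT mouse, and for Agtr1b and Mas1 also by their reads.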

Other observations

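Cell type markers not used beside a member are given as values. Endothelium markers summed to 15781, 17200 and 17649 normalized counts in mice 4001, 4002 and 4007 against 18536 in WT, and macrophage markers to 2421, 2509 and 2234 against 3357. Neutrophil markers summed to 1039, 382 and 2419 against 80.2. Of the 8 macrophage markers, 6 lay below both WT libraries in all LBR-null libraries and 1, Cd163, lay above them. Of all tested genes, 25.7% lay below and 25.5% above in this way.

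Mast cell chymases, which can make angiotensin II without the Ace product, had few reads and were chosen for mention after their values were seen. Cma1 was at 11.5 and 19.5 normalized counts in the libraries of mouse 4001, 2.58 in mouse 4002, 0 and 0.911 in mouse 4007, and 3.94 and 5.43 in WT. Mcpt4 was at 12.6 and 5.32 in mouse 4001, 0 in mouse 4002, 1.86 and 0 in mouse 4007, and 1.57 and 7.24 in WT. Both were highest in mouse 4001, the mouse that also held the most Cpa3.

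Mrgprd, a receptor gene for an angiotensin 1-7 relative, was at 1.15 and 12.4 normalized counts in mouse 4001, 4.30 in mouse 4002, 5.59 and 7.29 in mouse 4007, and 2.36 and 0 in WT. The libraries of mouse 4001 lay on either side of those of the other LBR-null mice, and the mean of the gene over the 4 mice was under the minimum of the test.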
